A study of Rattus norvegicus with 6 samples.

Results

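The RANKL, OPG and M-CSF axis was followed in 6 RNA-seq libraries of rat subchondral bone: S10, S12 and S13, then S20, S21 and S23. Subchondral bone is the bone plate and trabeculae under the cartilage of a joint. The genes were chosen by name and by their known roles, with earlier results of these data already known. They are the ligands Tnfsf11 (RANKL) and Csf1 (M-CSF), the decoy receptor Tnfrsf11b (osteoprotegerin, OPG) and the receptors Tnfrsf11a (RANK) and Csf1r. Each had 1 row among the 22050 annotated genes of the deposited table, and all 5 passed the filter on low values, a median of 10 counts or more over the libraries. The series set out to compare rats kept at low and at normal temperature in search of molecules tied to cold and arthritis. The labels give the tissue but place no library at either temperature, so no group was formed and no effect of cold was tested. The sources used here do not give strain, age or whether each library is a separate animal, and differences between libraries may be biological or technical. Where 6 values follow each other below, they are in the library order just given.

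Osteoclasts, the cells that resorb bone, form from precursors of the monocyte lineage that need both ligands. M-CSF acts through Csf1r and keeps the precursors alive and dividing. RANKL, carried by osteocytes, osteoblast-lineage and hypertrophic cartilage cells, marrow stroma and some lymphocytes, binds RANK on the precursor and starts the program led by the transcription factor Nfatc1. OPG is a secreted relative of RANK that captures RANKL before it reaches its receptor, so the balance of RANKL and OPG is commonly read as a measure of the drive toward resorption.

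Tnfsf11 had the largest ratio of highest to lowest FPKM of the 5 genes, 28.8-fold, and the 250 bases upstream of its transcription start are shown to place it. The sequence comes from RefSeq on the rat assembly GRCr8, at chr15:60114480-60114729 on the minus strand, and is written 5′ to 3′ up to the last base before the start. Of the 5 genes, Tnfsf11 and Csf1r had an entry in that table.

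Tnfsf11 upstream: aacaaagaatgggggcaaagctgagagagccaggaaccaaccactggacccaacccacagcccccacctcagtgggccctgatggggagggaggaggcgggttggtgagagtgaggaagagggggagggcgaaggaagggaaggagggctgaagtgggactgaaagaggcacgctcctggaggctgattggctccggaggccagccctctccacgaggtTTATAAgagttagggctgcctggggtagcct

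The capitals mark the TATA box core TATAA, found on the strand shown at bases -30 to -26 from the start and, overlapping it, on the opposite strand at -31 to -27. This core was present on either strand in 24.0% of 33469 upstream windows of the same length. The RUNX core TGTGGT, searched on both strands, was not among these letters and was present in 14.5% of the windows. The window is 61.6% G and C. These matches describe the sequence and carry no measurement.

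Total counts ranged from 39990624 (S10) to 59200981 (S21). The deposited FPKM values (read fragments corrected for transcript length and library size) were used for levels between genes, and raw counts for precision. Markers of the labelled tissue were present: the osteoblast genes Bglap, Col1a1 and Ibsp had medians of 439, 202 and 173 FPKM, and the osteocyte genes Mepe, Dmp1 and Sost 38.6, 38.5 and 7.20 FPKM. S10 stood apart. Its share of counts in 4 globin rows was the highest, at 27.6% against 10.4% to 20.8% in the others. Expressed annotated genes, those reaching a median of 1 FPKM, were shifted there by -0.31 log2 units (median over genes) from their own median over the libraries. The other 5 libraries were shifted by -0.03 to 0.14.

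Tnfsf11 (ENSRNOG00000049547), the gene of RANKL, was scarce everywhere and nearly absent in S12 and S21. It had 26, 3, 62, 41, 6 and 70 counts. As FPKM these were 0.604, 0.0486, 1.09, 0.954, 0.0859 and 1.40, with a median of 0.779. S12 and S21 lay far below the other 4 libraries: the upper bound of the exact 95% Poisson interval was 0.142 FPKM in S12 and 0.187 FPKM in S21, and the lowest bound among the other 4 was 0.395 FPKM, in S10. These intervals cover counting error only. The intervals of S12 and S21 overlapped each other. Scaled to total counts, S23 was 22.3-fold above S12, with an exact 95% interval of 7.32 to 111 that is wide because S12 holds 3 counts. The median level of Tnfsf11 stood above that of 17.5% of the 14563 annotated genes that passed the filter on low values. The transcript length implied by counts and FPKM was 1.05 to 1.08 kb in S10, S13, S20 and S23, 1.40 kb in S12 and 1.18 kb in S21, so FPKM and counts differ somewhat in how far they set S12 and S21 apart. S23 was highest under every scaling tried, and S12 lowest except after correction for gene length, where S21 was.

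Tnfrsf11b (ENSRNOG00000008336), the gene of OPG, varied little by comparison. Its FPKM was 1.91, 3.19, 2.72, 2.93, 2.05 and 1.72, from 242 to 464 counts. The highest value, in S12, was 1.86-fold above the lowest, in S23, and the intervals of these 2 libraries, 2.90 to 3.50 and 1.52 to 1.94 FPKM, did not overlap. S10, S21 and S23 had overlapping intervals at the low end. S12, where RANKL was lowest, thus had the highest OPG value as deposited, and S23, where RANKL was highest, had the lowest. S23 was lowest under every scaling tried, but the highest library was S13 with TMM or median-ratio factors, which equalise typical genes between libraries, and S10 after correction for gene length.

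The ratio of Tnfsf11 to Tnfrsf11b within a library does not depend on how libraries are scaled to each other, though it does depend on the transcript lengths behind FPKM. Library shifts also differed by gene length, and the ratio was not corrected for them. In S10 genes of similar length to Tnfsf11 were shifted by 0.11 log2 units, and those similar to Tnfrsf11b by -0.41. In S20 these shifts were -0.21 and 0.15, and the other libraries had smaller gaps. On the FPKM scale the ratio was 0.316, 0.0152, 0.401, 0.325, 0.0418 and 0.812. OPG transcripts per unit length therefore outnumbered RANKL transcripts 65.7-fold in S12 and 23.9-fold in S21, and 1.23-fold in S23. In S23 the exact 95% interval of the ratio, 0.614 to 1.06, included equality. S10, S13 and S20 formed a middle level, with overlapping intervals from 0.202 to 0.524. The interval of S23 lay above those 3, and the intervals of S12 and S21 lay below them and overlapped each other. S23 over S12 was a 53.4-fold difference in the ratio, with an approximate 95% interval of 16.6 to 171. Taken from raw counts with 0.5 added to each, instead of from FPKM, it was 34.4-fold. On the FPKM scale it was 19.4-fold without S12.

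**Figure D1:**
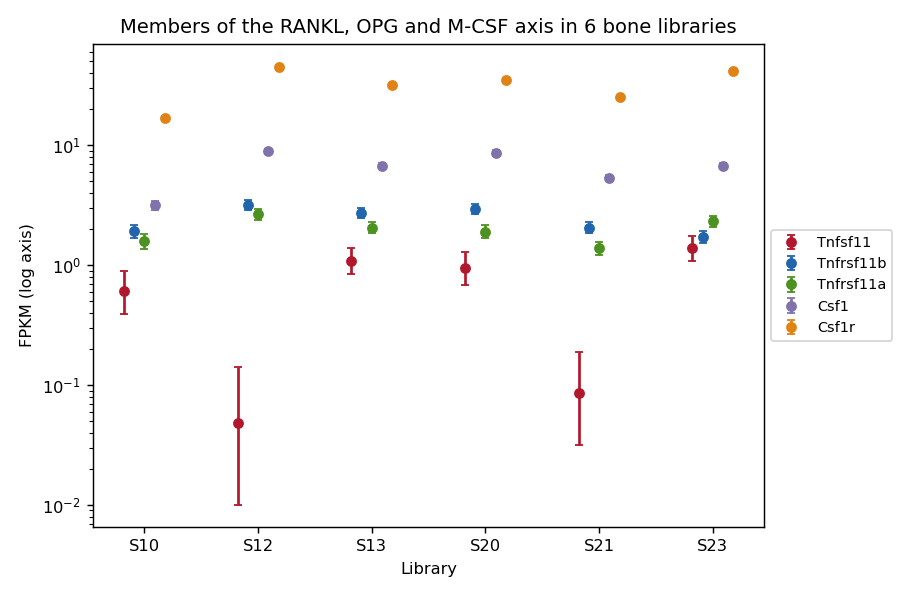
FPKM (log axis) of the 5 genes in each library, with exact 95% Poisson intervals for counting error as bars. Csf1r is highest in every library, and Tnfsf11 drops to 0.0486 FPKM in S12 and 0.0859 FPKM in S21.

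**Figure D2:**
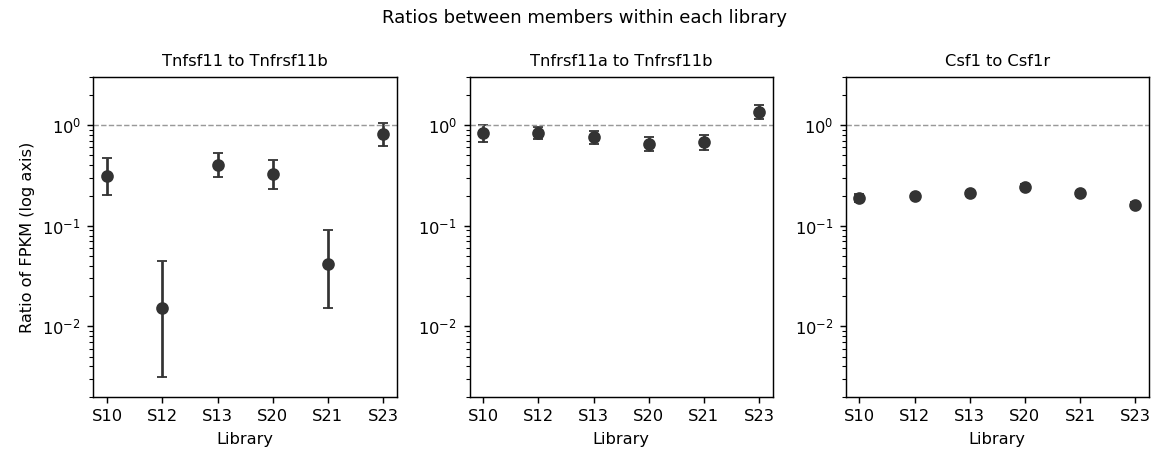
Ratio of FPKM (log axis) between members within each library, with exact 95% binomial intervals for counting error as bars and a dashed line at equality. The Tnfsf11 to Tnfrsf11b ratio spans 0.0152 to 0.812, the Csf1 to Csf1r ratio 0.161 to 0.244.

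Tnfrsf11a (ENSRNOG00000015615), the gene of the receptor RANK, had 1.59, 2.65, 2.05, 1.90, 1.38 and 2.32 FPKM, from 198 to 362 counts. S12 and S23 had the highest values and S21 the lowest, 1.92-fold below S12. The interval of S21, 1.22 to 1.56 FPKM, overlapped that of S10, 1.37 to 1.82 FPKM. The interval of S23, 2.08 to 2.58 FPKM, overlapped those of S12, S13 and S20. S21 was lowest under every scaling tried, and S12 highest except after correction for gene length, where S10 was. RANK was below its decoy OPG in 5 of 6 libraries, with FPKM ratios of RANK to OPG from 0.649 to 0.832. In S23 the order was inverted, with a ratio of 1.35 (exact 95% interval 1.15 to 1.59). The interval in S10, 0.684 to 1.01, included equality. Without S23 the highest ratio was 1.28-fold the lowest, against 2.08-fold with it. Tnfsf11 was below Tnfrsf11a in every library, at a ratio of 0.0183 in S12, 0.0622 in S21 and 0.381 to 0.601 in the others. In the reference table Tnfrsf11a is also an older name of Zcchc2, a gene on the same chromosome. Zcchc2 has its own row, at 0.501 to 3.06 FPKM, and was not counted as RANK.

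Csf1 and Csf1r were the most abundant members. Csf1 (ENSRNOG00000018659), the gene of M-CSF, had 3.15, 8.87, 6.74, 8.60, 5.30 and 6.71 FPKM. Csf1r (ENSRNOG00000018414), the gene of its tyrosine kinase receptor, had 16.8, 44.8, 31.9, 35.3, 25.1 and 41.6 FPKM. Both were lowest in S10, second lowest in S21 and highest in S12, and no interval of another library overlapped that of S10 for either gene. S10 was lowest under every scaling tried. The highest library for Csf1 was S20 with TMM factors or a common total without globin, and for Csf1r it was S23 after correction for gene length. Their counts, 538 to 1605 for Csf1 and 2699 to 7655 for Csf1r, leave little counting error. Csf1r stood above 85.6% and Csf1 above 53.1% of the 14563 genes, so the receptor was among the higher and the ligand among the middle genes of this tissue.

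The low values in S10 came with a shift of the library that differed by gene length. Csf1 lay 0.90 log2 units below its median there and Csf1r 0.96, while genes of similar length, one of 20 length bins, lay 0.52 below theirs. In S10 the bin of Tnfrsf11a and Tnfrsf11b was at -0.41. The bin of Tnfsf11, which holds shorter genes, was at 0.11. Relative to their own bin Csf1 was at -0.38 and Csf1r at -0.44, and both kept their lowest value in S10. The part of transcript length and globin content in these values was not tested further. The ratio of Csf1 to Csf1r was steadier than either gene: it was 0.188, 0.198, 0.211, 0.244, 0.211 and 0.161. Receptor transcripts thus exceeded ligand transcripts 4.10-fold to 6.19-fold. S20 at the top and S23 at the bottom differed 1.51-fold, beyond their intervals of 0.230 to 0.258 and 0.152 to 0.171.

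By level the order was Csf1r, Csf1, Tnfrsf11b, Tnfrsf11a and Tnfsf11 in 5 of 6 libraries, and S23 exchanged Tnfrsf11b and Tnfrsf11a. The ranges of Tnfrsf11b (1.72 to 3.19 FPKM) and Tnfrsf11a (1.38 to 2.65 FPKM) overlapped over the libraries, so these neighbours were not separated by more than their spread. Csf1 in S10 (3.15 FPKM) was also below OPG in S12. Tnfsf11 in S23 (1.40 FPKM) reached the level of Tnfrsf11a in S21 (1.38 FPKM), while Csf1r overlapped no other member.

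The spread over the libraries was taken as the range of log2(FPKM + 1), and a gene was called variable at 1 log2 unit or more, a 2-fold difference on that scale. By this rule 3 of the 5 genes were called, with ranges of 1.36 for Csf1r, 1.25 for Csf1 and 1.19 for Tnfsf11. The ranges of Tnfrsf11b and Tnfrsf11a were 0.62 each. Of the 14563 annotated genes, 4473 were called, or 30.7%, with a median range of 0.74. The median of the 5 genes was 1.19. With 5 genes this count is not read as a difference from the background. Calls of Csf1 and Csf1r rested on S10: without it their ranges were 0.65 and 0.81, and genes called fell to 1690. They were also lost under TMM scaling (0.76 and 0.79), which shifts S10 up by 0.39 log2 units and S12 down by 0.21, and after correction for gene length (0.47 and 0.70). Tnfsf11 stayed called under these 3 settings, at 1.19, 1.14 and 1.06. Its range was 0.99 without S23 and 0.58 without both S12 and S21. Because 1 FPKM is added, this scale understates a gene as low as Tnfsf11: with 0.1 added its range was 3.33, and those of the other 4 were 0.86 to 1.46.

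**Figure D3:**
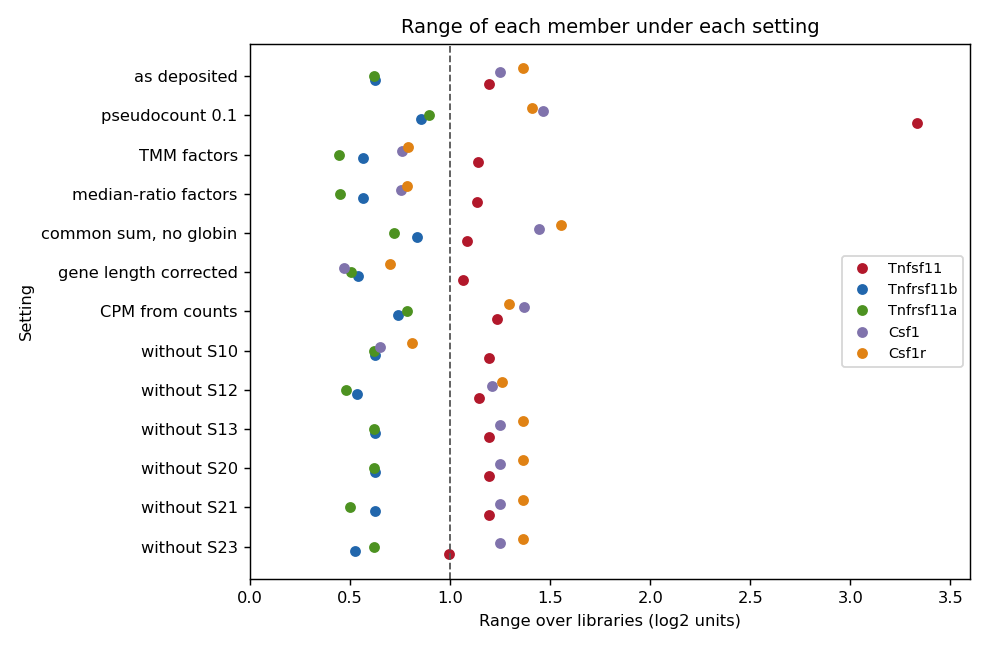
Range of each gene over the libraries in log2 units under each setting, with a dashed line at the 1 log2 unit that counts as variable. Csf1 and Csf1r cross to the left of the line under TMM and median-ratio factors, length correction and without S10, and Tnfsf11 does so, at 0.99, without S23.

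The genes whose log2(FPKM + 1) followed each member most closely over the 6 libraries were sought among 11507 annotated genes that reached a median of 1 FPKM and whose name stood on 1 row only. Pearson's r is given as a description, since the 6 libraries share their depth and composition across genes and the genes were picked for a high r. Closest to Tnfsf11 was Dsg3 (r = 0.98), which encodes desmoglein 3, an adhesion protein of desmosomes in skin and mucosa. Dsg3 (ENSRNOG00000016632) had 460, 12, 2460, 2219, 4 and 3356 counts. As FPKM these were 1.65, 0.0394, 6.54, 7.79, 0.00767 and 10.2. It was thus nearly absent in the same libraries as Tnfsf11, S12 and S21, and highest in S23 as well. Its range of 3.47 log2 units exceeded that of 99.4% of genes. Under TMM scaling Dsg3 remained closest, with r = 0.97.

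Only 5 genes reached r of 0.95 with Tnfsf11 as deposited, and Dsg3 was the 1 of them called variable. The next, Tmem45a and Mthfs (8.22 to 11.5 FPKM), a gene of folate metabolism, had ranges of 0.34 and 0.44 and ranked 29 and 61 under TMM scaling. Genes that mark keratinocytes, the main cells known to carry Dsg3, were looked up after this was seen. All 7 (Krt5, Krt14, Krt15, Dsc3, Dsp, Pkp1 and Tp63) stayed under 1 FPKM in every library, Krt15 and Dsc3 had 0 counts throughout, and the summed level was 0.114 FPKM in S21 to 0.225 FPKM in S10.

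**Figure D4:**
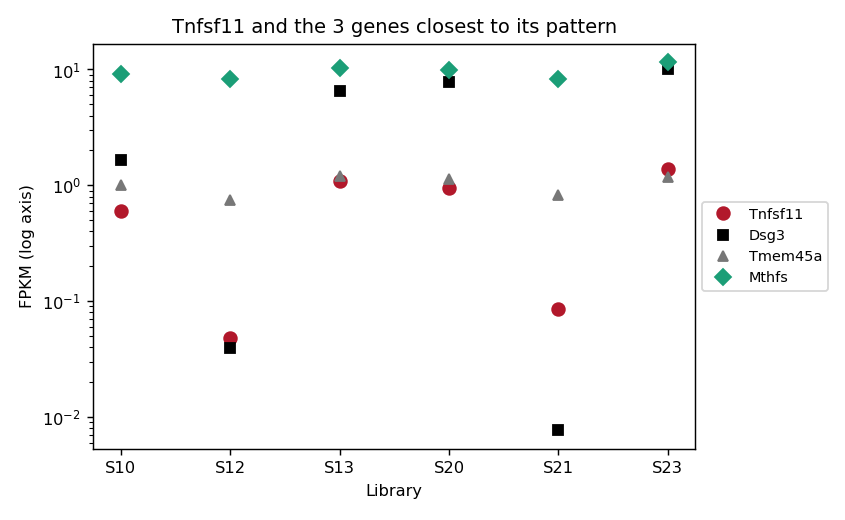
FPKM (log axis) of Tnfsf11 and of the 3 genes closest to its pattern in each library. Tnfsf11 and Dsg3 are both low in S12 and S21, while Tmem45a and Mthfs vary by less than 1 log2 unit.

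The other members had less distinctive company. Csf1 had 1395 genes at r of 0.95 or more, 12.1% of those searched, led by Gcnt1 (r = 0.998), a glycosyltransferase gene. Csf1r had 631 such genes, led by Amz1 (r = 0.998). Tnfrsf11b had 53, led by Sesn1 (r = 0.991), and Tnfrsf11a had 19, led by Taf9 (r = 0.995), a gene of a transcription initiation complex. Under TMM scaling the numbers for Csf1 and Csf1r were 310 and 75. Between members, Csf1 and Csf1r had r = 0.93 (0.82 under TMM scaling), and Tnfrsf11a and Csf1r 0.83 (0.47). Tnfsf11 had r of -0.27 to 0.17 with the other 4 genes as deposited, and of -0.24 to 0.31 under TMM scaling.

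Downstream of RANK, all 17 genes of a signalling list reached a median of 1 FPKM, and 8 were called variable, against 30.7% of all genes tested. Without S10, 2 of the 17 were called, against 11.6% of all genes tested. Under TMM scaling 4 were called, against 24.5%. The adaptor Traf6 had 1.30 to 3.09 FPKM. Nfatc1, the transcription factor that RANKL induces, had 1.76, 7.36, 4.14, 6.04, 4.29 and 6.02 FPKM. As deposited, Nfatc1 was therefore highest in S12, where Tnfsf11 was lowest. The most abundant of the list were the kinases Btk and Ikbkb and the NF-kB subunit Rela, at medians of 30.7, 20.9 and 20.6 FPKM. Of 6 co-stimulation genes 4 were called, against 30.7% of all genes tested, and 1 without S10, against 11.6%. Their adaptors Tyrobp and Fcer1g and the kinase Syk had medians of 465, 425 and 34.0 FPKM, and these adaptors also serve other myeloid cells.

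Osteoclast genes that RANKL switches on spanned medians of 0.262 to 1042 FPKM. Of 9 in the list 5 were called, against 30.7% of all genes tested, and 4 without S10, against 11.6%. Itgb3, an integrin gene also of platelets, ranged most, from 10.8 FPKM in S10 to 65.0 FPKM in S20. Car2, the carbonic anhydrase that supplies protons for resorption and is shared with red cells, had a median of 1042 FPKM. The protease Ctsk ranged from 220 FPKM in S21 to 508 FPKM in S23 and the phosphatase Acp5 from 181 FPKM in S21 to 277 FPKM in S23. Each list was given a score per library: the average deviation of its expressed genes from their own medians, in log2(FPKM + 1) units. For osteoclast genes it was 0.18 in S12, close to the shift of 0.14 over all expressed genes there, 0.12 in S23 and S20, -0.28 in S21 and -0.31 in S10. Of the 7 genes scored, 4 had their highest value in S23, where Tnfsf11 was highest too, 2 in S20 and 1 in S12. In S12, where Tnfsf11 was lowest, Acp5 and Ctsk had 273 and 427 FPKM. No share over all genes was taken for these peaks, and a tie to Tnfsf11 was not tested. The fusion genes Dcstamp and Ocstamp and the calcitonin receptor gene Calcr had medians of 1.39, 0.449 and 0.262 FPKM and were not called.

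Among signals downstream of Csf1r, 6 of 10 genes were called, against 30.7% of all genes tested. Without S10 or under TMM scaling 2 were called, against 11.6% and 24.5% of all genes tested. Ptpn6, Spi1 and Grb2 led with medians of 93.0, 92.3 and 54.8 FPKM. Spi1 encodes PU.1, the myeloid factor that drives Csf1r, and ranged from 64.7 FPKM in S20 to 156 FPKM in S23. Of the 14 related ligands and receptors with a row, 12 passed the filter on low values and 4 were called, 3 without S10. The share of all genes tested was 30.7%, and 11.6% without S10. Il34, the other ligand of Csf1r, had 1.24 FPKM in S12 and 2.15 FPKM in S21, its lowest and highest values. Csf2 had 2 counts, both in S23, and Csf3 had 0 counts in all 6 libraries, which allows up to 0.0507 to 0.0750 CPM (3 counts per library), while their receptor genes Csf2ra, Csf3r and Csf2rb had medians of 77.0, 32.1 and 15.0 FPKM. Csf2rb and Csf3r ranged by 2.81 and 2.10 log2 units, lowest in S10 and highest in S23. Lgr4, a further receptor of RANKL, and Tnfsf10 (TRAIL), a further ligand of OPG, had medians of 1.05 and 1.32 FPKM and were not called.

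Repressors of osteoclast formation were called in 5 of 7 cases, and in 1 without S10. Here and for each list that follows in this paragraph, the share of all genes tested was 30.7%, and 11.6% without S10. Nfkbia and Irf8 had medians of 42.9 and 41.3 FPKM. Of 13 genes for signals known to raise RANKL, 10 passed the filter and 6 were called, 4 without S10. The most abundant were Pth1r, the parathyroid hormone receptor (15.2 FPKM), Il1b (14.5 FPKM) and the prostaglandin receptor Ptger4 (6.40 FPKM). Il6st, the shared receptor of the interleukin 6 family, ranged by 2.15 log2 units, from 0.654 FPKM in S10 to 6.35 FPKM in S12. Of 8 genes for signals known to raise OPG, 6 passed and 3 were called, 0 without S10, and Tgfb1, Ctnnb1 and Tgfbr1 led with medians of 72.8, 57.0 and 8.71 FPKM. Of 4 genes of proteases that shed RANKL or Csf1r from the cell surface, 3 passed and 2 were called, 1 without S10. Adam10 ranged by 2.10 log2 units, from 7.40 FPKM in S10 to 35.1 FPKM in S20, while Mmp14 and Adam17 had medians of 16.0 and 14.9 FPKM. Over the 9 lists 43 of the 80 genes that passed the filter on low values were called, against 30.7% of all genes tested. Without S10 the number called was 18 of the 80, against 11.6% of all genes tested, and under TMM scaling 25, against 24.5%. Of the 43, 33 were lowest in S10. The share of all called genes lowest in S10 was not taken, so this count is not read as particular to these lists.

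Markers of the cells that can carry RANKL did not share its low values in both S12 and S21. Over all expressed genes S12 was shifted by 0.14 and S21 by -0.03. The osteocyte score was 0.31 in S12, its highest value, and -0.08 in S21. Osteoblast genes scored 0.27 and -0.04, hypertrophic cartilage genes 0.31 and -0.07, other cartilage genes 0.40 and 0.06, marrow stroma genes 0.63 and -0.18, T cell genes 0.36 and -0.24, and B cell genes 0.86 and -0.90, in S12 and S21. In bulk RNA fewer cells of a type and less transcript per cell cannot be told apart. For monocytes and macrophages, the lineage that carries Csf1r and RANK, the score was lowest in S10 (-0.40) and highest in S12 (0.52). All expressed genes were shifted by -0.31 and 0.14 in these libraries. Csf1r was lowest and highest in the same libraries, while RANK was lowest in S21. The summed level of the list ran from 239 FPKM in S20 to 348 FPKM in S12, with 300 FPKM in S10. Endothelial and fibroblast genes were also lowest in S10 and highest in S12, from -0.39 to 0.61 and from -0.34 to 0.27.

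Adipocyte genes scored 1.64 in S12 and -1.26 in S23, and muscle genes 1.93 in S12 and -1.32 in S20. S12 thus held the most transcript of fat and muscle. Adipoq had 62.5 FPKM in S12 and 0.957 in S23, and Ckm 28.1 and 0.207. Neutrophil genes scored 0.93 in S23 and -0.87 in S20, and erythroid genes -0.92 in S23 and 0.38 in S10. S23, which had the highest RANKL to OPG ratio, was thus the library richest in neutrophil and poorest in red cell, adipocyte and B cell transcripts. The part of these shifts in the member values was not tested. Rows were found for 69 of 74 marker entries.

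**Figure D5:**
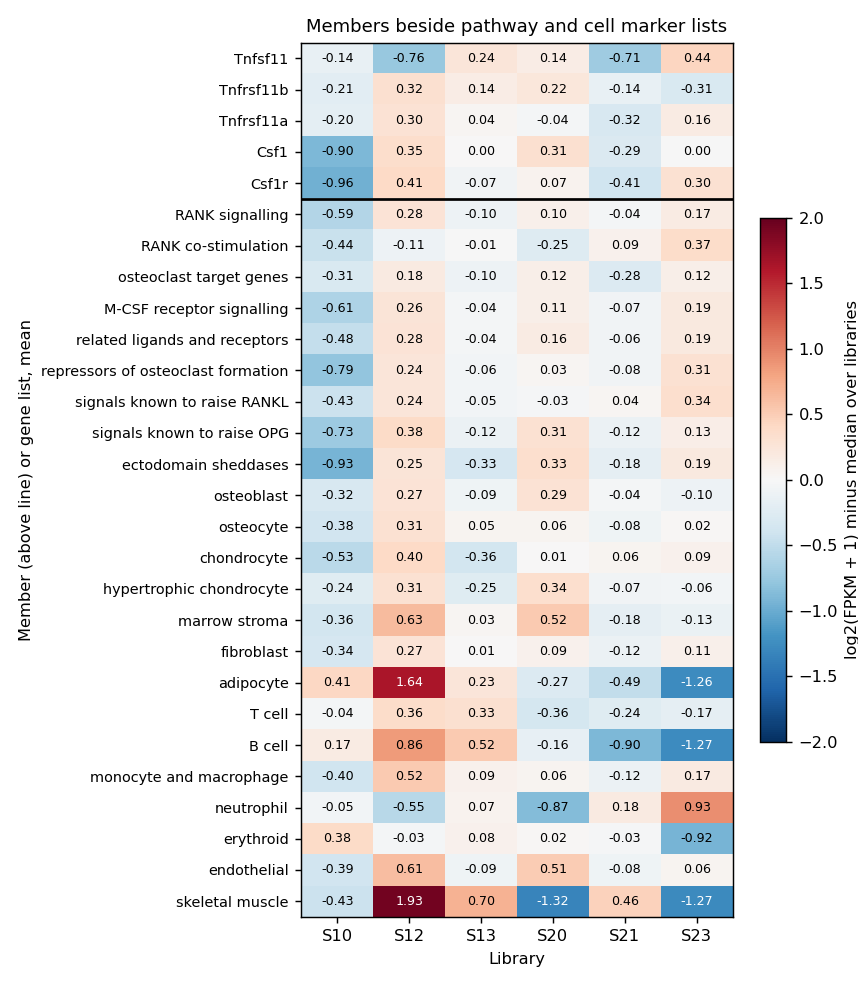
Deviation of each member (above the line) and mean deviation of each gene list (below it) from the median over libraries, in log2(FPKM + 1) units, by library. Tnfsf11 is at -0.76 in S12 and -0.71 in S21, while the osteocyte list is at 0.31 and -0.08 there.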

How the data were processed

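Per the labels' protocols, an RNeasy kit gave the RNA and a SMARTER mRNA-Seq kit the libraries. The deposited table gives, per the file headers, a raw count and an FPKM value per gene and library. The counts are as the authors deposited them, and the deposited FPKM values are the authors' own. Aligner and counting tool: not given in the sources used here. The submitters' processing notes list the mouse builds GRCm38 and mm10 but the rows carry rat Ensembl IDs. No coordinates are therefore given with the values. Of 30610 rows, 10 without values were left out.

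All 6 libraries stayed unassigned and no test between groups was run. Intervals are exact 95% (Poisson for counts, Clopper-Pearson for ratios) and cover counting error only. Implied length is CPM divided by FPKM. Length correction subtracts, in each library, the median deviation of genes of similar length (20 bins). The 23 gene lists held 164 entries, 7 without a row. Members and lists were chosen with earlier results of these data known. Named genes are the members, the 3 most abundant of each list, list genes ranging by 2 log2 units or more, and the 3 closest to each member. Nfatc1, Traf6, Il34, Lgr4, Tnfsf10, Csf2, Csf3, Dcstamp, Ocstamp, Calcr, Zcchc2, the keratinocyte genes and the motifs were added after their values were seen. Alternatives used edgeR 4.0.16 (TMM) and DESeq2 1.42.0 (median-ratio factors). The range call was tested on simulated counts (dispersion 0.05, 1 library changed). Of genes reaching 1 FPKM it called 14.7% of unchanged, 28.9% of 1.5-fold, 76.2% of 2-fold and 100% of 4-fold ones. The dispersion was assumed, and no shift of a whole library was simulated. Tnfsf11, at a median of 0.779 FPKM, lies below the level covered. These rates therefore do not give the error of the member calls.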

Additional observations from a re-analysis of the deposited data

How the results depend on the processing

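Of 65 member ranges recomputed over 13 alternatives, 55 stayed on their side of 1 log2 unit. Those of Tnfrsf11a and Tnfrsf11b did so in all 13. Csf1 and Csf1r fell below it with TMM factors (0.76 and 0.79), median-ratio factors (0.75 and 0.78) and length correction (0.47 and 0.70), which left 1 member called each time. Leaving out 1 library gave 0.99 to 1.19 for Tnfsf11, 0.65 to 1.25 for Csf1, 0.81 to 1.36 for Csf1r, 0.48 to 0.62 for Tnfrsf11a, 0.52 to 0.62 for Tnfrsf11b, and 1 to 3 members called. Calls of Csf1 and Csf1r were lost without S10, that of Tnfsf11 without S23. The genes called among 14563 numbered 7702 with a pseudocount of 0.1, 2585 with length correction and 1690 to 4420 with 1 library left out, the lowest without S10. The highest over the lowest FPKM ratio of Tnfsf11 to Tnfrsf11b was 53.4, and 19.4 to 53.4 with 1 library left out, lowest without S12. Taken from raw counts with 0.5 added to each, instead of from FPKM, it was 34.4. For Tnfsf11 to Tnfrsf11a it was 32.8, and 9.66 to 32.8, lowest without S12, and 21.2 from raw counts with 0.5 added. For Tnfrsf11a to Tnfrsf11b it was 2.08, and 1.28 to 2.08, and for Csf1 to Csf1r 1.51, and 1.30 to 1.51, each lowest without S23. Leaving out S12 and S21 together, chosen after the data were seen, gave 2.57 for Tnfsf11 to Tnfrsf11b, 1.58 for Tnfsf11 to Tnfrsf11a and a Tnfsf11 range of 0.58. At 3 and 6 counts the depth does not set the level of Tnfsf11 in S12 and S21 closely. No paired analysis was possible because the labels give no groups.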
